A study of Rattus norvegicus with 6 samples.

Results

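The genes of the AMPA and NMDA glutamate receptor subunits were compared between spinal cord cultures grown on carbon nanotubes and on a control substrate. They were chosen by name, as the 4 AMPA subunit genes Gria1 to Gria4 and the 5 NMDA subunit genes Grin1 and Grin2a to Grin2d. All 9 had at least 1 probe set that the array's annotation pairs with that gene alone, among 14217 such genes, and together they had 18 of 20826 such probe sets. The cells came from the dissociated spinal cord of P1-P4 rats, given as Sprague-Dawley in the sample labels and as Wistar in the study's methods. Control cultures grew on glass coated with polyornithine and CNT cultures on glass covered with a film of multiwalled carbon nanotubes, both in the same medium with horse serum and nerve growth factor. After 8 days in vitro total RNA was isolated from 3 control and 3 CNT cultures, and 100 ng of each was amplified and hybridized to an Affymetrix rat array of its own. The cultures are mixed, so neurons are only some of the cells whose RNA was measured. The methods call the replicates separate culture series.

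Glutamate is the main excitatory transmitter of the spinal cord. AMPA receptors are tetramers that carry the fast synaptic current, and the edited Gria2 subunit makes them nearly impermeable to calcium. NMDA receptors combine the obligatory Grin1 subunit with Grin2 subunits, need glycine or D-serine as a co-agonist, and are blocked by magnesium at rest. In many regions Grin2b and Grin2d prevail early in development and Grin2a comes later, while Grin2c is best known from the cerebellum and from glial cells. Oligodendrocyte precursors and astrocytes carry glutamate receptors too, so these genes are not markers of neurons alone.

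The arrays compare gene expression between the 2 substrates. No subunit gene passed the test between CNT and control cultures. The leading probe sets of Gria2, Gria3 and Gria4, meaning those with the highest mean over the 6 arrays, had lower means in CNT cultures. Those of Gria1 and of the 5 NMDA genes had slightly higher means, with signs that turned under quantile normalization or cyclic loess for Gria1 and Grin2d. The folds of CNT over control went from 0.725 for Gria3 to 1.20 for Grin2c. In limma, 0 of the 9 genes passed an adjusted p of 0.05 and 0 had an unadjusted p under 0.05, where 0% of all genes passed and 3.12% had such an unadjusted p. The smallest adjusted p over all genes was 0.847, and each of the 9 members had 0.999. No member passed a fold of 2 or 0.5, which 1.02% of all genes passed. In 0 of the 9 did the groups not overlap, which they did not in 7.99% of all genes (2.05% with CNT below). The 95% interval of the fold lay within these bounds for 7 members, and reached past them for Gria3 (0.437 to 1.20) and Grin2c (0.667 to 2.14). Of the 7, only Gria2 lay above the dimmest 30% of genes. RMA compresses differences of dim probe sets, so a narrow interval there does not show that the transcript was unchanged.

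**Figure D1:**
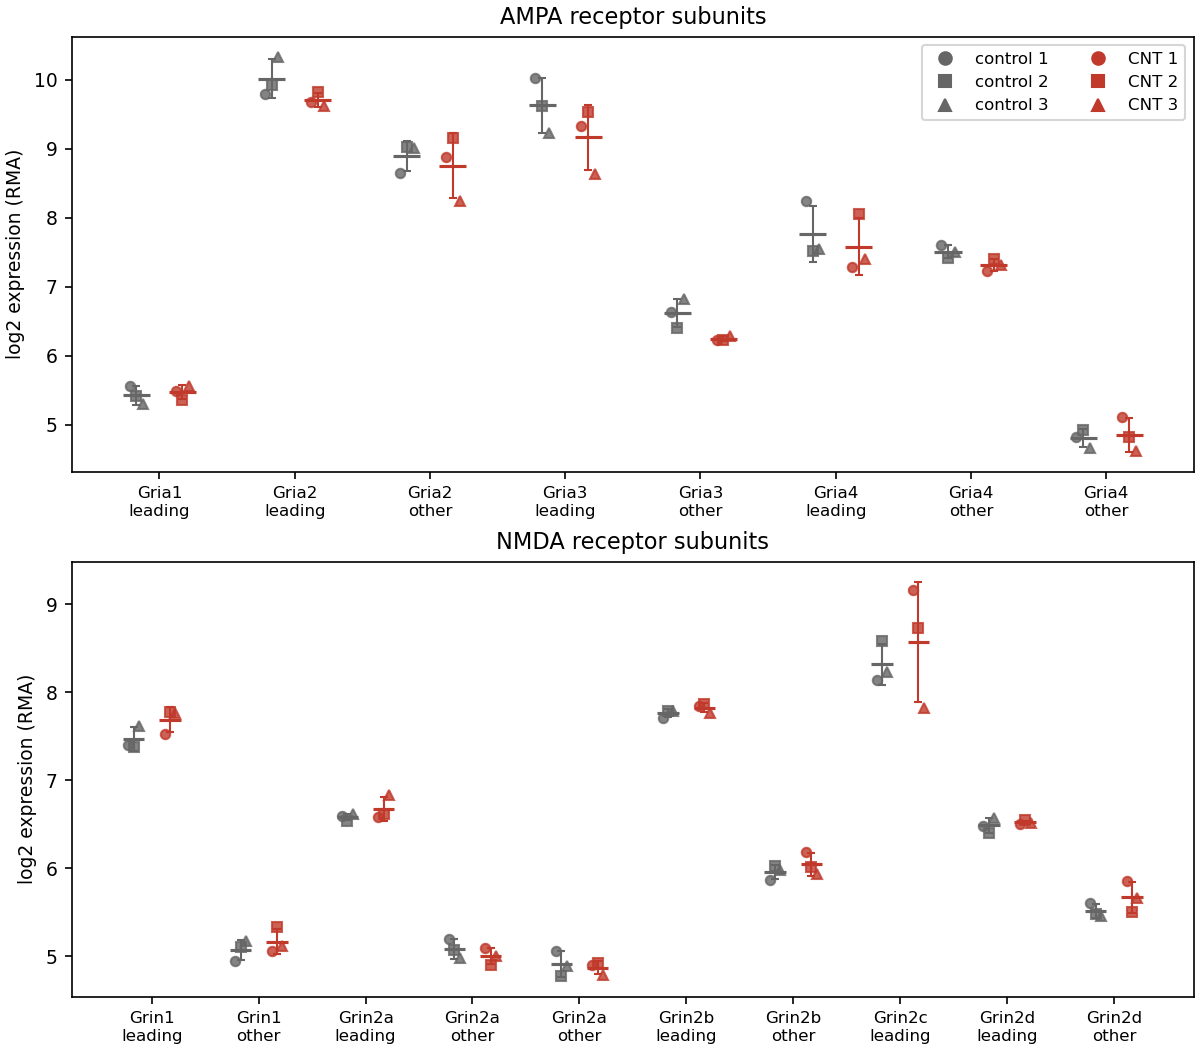
Log2 expression (RMA, vertical axis) of each of the 18 probe sets by array, in grey for control and in red for CNT cultures, with marker shapes for replicates 1, 2 and 3. The mean is a horizontal line and the SD (n = 3) a bar; the groups overlap in 16 probe sets, and every CNT array lies below every control array in 1 probe set of Gria3 and 1 of Gria4.

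Gria2 encodes the subunit that sets the calcium permeability of AMPA receptors. Its leading probe set had a log2 expression of 9.80, 9.92 and 10.34 in control cultures 1, 2 and 3 and of 9.68, 9.83 and 9.62 in CNT cultures 1, 2 and 3. Control 3 was the highest array, and the groups overlapped only in that CNT 2 lay above control 1. The means were 10.02 ± 0.28 (SD, n = 3) and 9.71 ± 0.11 (SD, n = 3), a log2 fold change of -0.31 ± 0.16 (standard error, SE). It was -0.15 without control 3 and -0.48 when both control 1 and CNT 2 were left out. The second probe set of Gria2 gave 8.65, 9.03 and 9.01 in control cultures and 8.88, 9.15 and 8.24 in CNT cultures, in the same order of replicates. Here CNT 3 was the lowest array and CNT 2 the highest, and the groups overlapped. The log2 fold change of the second was -0.14 ± 0.26 (SE), and it turned to 0.12 without CNT 3.

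Gria3 encodes another pore-forming AMPA subunit, and its leading probe set had the lowest fold of the 9 genes. The leading one gave 10.03, 9.62 and 9.23 in control cultures and 9.33, 9.54 and 8.63 in CNT cultures. The groups overlapped, with control 1 highest and CNT 3 lowest, and the log2 fold change was -0.46 ± 0.30 (SE). It was -0.20 without CNT 3, -0.26 without control 1, and -0.66 when control 3 was left out. Control 1 and CNT 2 were each the highest of their group. These arrays also had the largest excess of the 3' over the 5' probe set of beta-actin, a sign of RNA quality, and CNT 3 came next. The log2 fold change was -0.59 with that difference as a covariate. It was -0.45 without both control 1 and CNT 2, which keeps CNT 3. The second probe set gave 6.64, 6.40 and 6.82 in control cultures and 6.23, 6.23 and 6.29 in CNT cultures. The CNT arrays all lay below the control arrays, and the CNT arrays lay close together. With a mean of 6.44 over the arrays, the second probe set was dim enough to be left out with the dimmest genes. The leading one, at 9.40, was not. RMA compresses differences of dim probe sets, and its part in the close CNT values of the second probe set was not tested. The log2 fold change was -0.37 ± 0.13 (SE), the adjusted p from limma over all probe sets was 0.999 and the unadjusted p 0.0274. It was from -0.27 without control 3 to -0.48 without control 2. It was 1 of the 18 member probe sets with an unadjusted p under 0.05, against 2.96% of all probe sets.

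Gria4 encodes a subunit with fast kinetics and has 3 probe sets, which did not give the same picture. The leading one gave 8.24, 7.52 and 7.55 in control cultures and 7.28, 8.06 and 7.40 in CNT cultures. Control 1 and CNT 2 stood above the other 4 arrays, and they are also those with the largest excess of the 3' over the 5' probe set of beta-actin, a sign of RNA quality (2.20 log2 in both, against 0.62 to 1.72 in the others). Its log2 fold change was -0.18 ± 0.28 (SE), 0.05 without control 1, -0.42 without CNT 2 and -0.19 without both of these arrays, and it was -0.41 with the actin difference as a covariate. The second probe set gave 7.60, 7.41 and 7.50 in control cultures and 7.23, 7.41 and 7.31 in CNT cultures. The CNT arrays all lay below the control arrays, though CNT 2 and control 2 were equal to the second decimal, and the log2 fold change was -0.19 ± 0.10 (SE). The third gave 4.82, 4.93 and 4.66 against 5.11, 4.83 and 4.62, with a log2 fold change of 0.05 ± 0.16 (SE). Of the 18 member probe sets, 2 thus had groups that did not overlap, beside 7.96% of all probe sets. In both CNT was below (2.43% of all probe sets) and in 0 above (5.53%). Both were dim enough to be left out with the dimmest genes.

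Gria1, whose product is moved into synapses during plasticity, has 1 probe set here. It gave 5.56, 5.42 and 5.29 in control cultures and 5.49, 5.36 and 5.56 in CNT cultures. The arrays lay within 0.26 log2 of each other, with control 1 and CNT 3 highest and no separation of the groups. The log2 fold change was 0.05 ± 0.11 (SE), which was -0.02 without control 3.

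Grin1, the subunit that every NMDA receptor needs, had the smallest unadjusted limma p among the NMDA genes (0.113). Its leading probe set gave 7.40, 7.37 and 7.62 in control cultures and 7.53, 7.78 and 7.76 in CNT cultures. Control 3 lay above CNT 1 and the groups otherwise did not overlap. The means were 7.46 ± 0.14 (SD, n = 3) and 7.69 ± 0.14 (SD, n = 3), a log2 fold change of 0.22 ± 0.12 (SE) that stayed between 0.18 and 0.30 with any 1 array left out. The second probe set gave 4.95, 5.10 and 5.17 in control cultures and 5.05, 5.33 and 5.12 in CNT cultures, which overlapped, with a log2 fold change of 0.09 ± 0.12 (SE). Without control 1 and CNT 2 the second turned to -0.05, and the leading one was at 0.15. On 5 of the 6 arrays both probe sets lay on the same side of their own mean.

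The Grin2 genes encode the subunits that bind glutamate and set how long the current of an NMDA receptor lasts. Grin2b, with its long-lasting currents, differed least between arrays. Its leading probe set gave 7.71, 7.79 and 7.79 in control cultures and 7.84, 7.87 and 7.76 in CNT cultures, a log2 fold change of 0.06 ± 0.09 (SE). CNT 1 and CNT 2 lay above all control arrays and CNT 3 did not. The 95% interval of the fold was 0.898 to 1.21, for a gene among the dimmest 30%. The second probe set had a log2 fold change of 0.09 ± 0.11 (SE).

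Grin2a has 3 probe sets. The leading one gave 6.59, 6.54 and 6.61 in control cultures and 6.59, 6.61 and 6.83 in CNT cultures, where CNT 3 alone stood apart. Its log2 fold change was 0.10 ± 0.10 (SE) and 0.02 without CNT 3. The other 2 probe sets had log2 fold changes of -0.08 ± 0.11 (SE) and -0.04 ± 0.11 (SE), so the mean over all 3 turned the sign to -0.01. Grin2d had a leading probe set at 6.48, 6.40 and 6.57 in control cultures and 6.50, 6.54 and 6.51 in CNT cultures. All its CNT values lay inside the control range, and the log2 fold change was 0.03 ± 0.09 (SE). Its second probe set had one of 0.16 ± 0.12 (SE).

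Grin2c varied most among the NMDA genes. Its probe set gave 8.14, 8.58 and 8.22 in control cultures and 9.17, 8.73 and 7.82 in CNT cultures. The CNT cultures thus held both the highest values and the lowest one, and their SD of 0.68 (n = 3) exceeded the control SD of 0.23 (n = 3). The log2 fold change was 0.26 ± 0.35 (SE), 0.63 without CNT 3 and -0.04 without CNT 1. Markers of the oligodendrocyte lineage, averaged over 12 genes of 14 listed and set to 0 at the mean of the 6 arrays, were at -0.08, 0.31 and -0.46 log2 in control cultures and at 0.51, 0.30 and -0.58 in CNT cultures. Both were highest in CNT 1 and lowest in CNT 3, and the part of these cells in the Grin2c values was not tested.

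**Figure D2:**
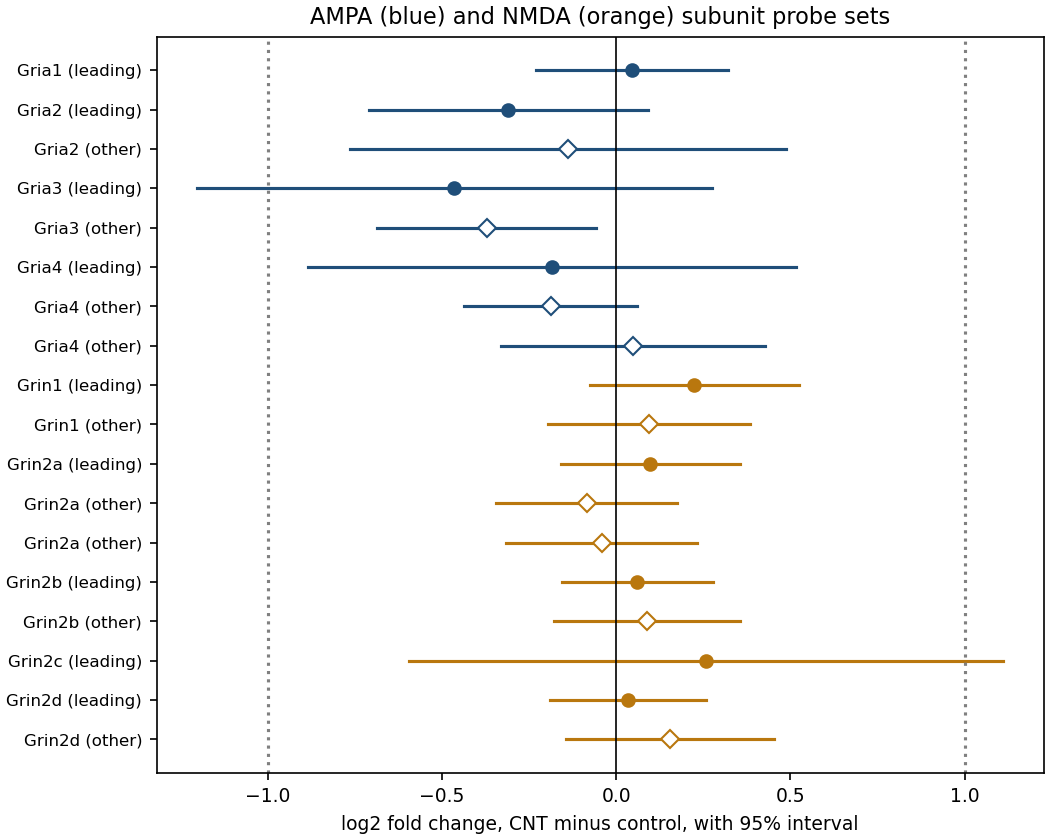
Log2 fold change of CNT minus control (horizontal axis) for each probe set of the AMPA (blue) and NMDA (orange) subunit genes, with its 95% interval from limma; filled circles are leading probe sets, open diamonds the others, and dotted lines mark a fold of 2 and of 0.5. Of the 8 AMPA probe sets 6 lie below 0 and of the 10 NMDA probe sets 8 lie above 0, with signs that turned for the leading ones of Gria1 and Grin2d under quantile normalization or cyclic loess.

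The AMPA and NMDA genes were also read as groups. The 4 AMPA genes had a median log2 fold change of -0.25 and the 5 NMDA genes one of 0.10, while the median over all genes was 0.03. The AMPA median moved to -0.11 when control 1 was left out, to -0.15 when CNT 3 was and to -0.40 when CNT 2 was, and the NMDA median was 0.05 without CNT 1 and 0.06 with cyclic loess. Of the AMPA genes 3 were below 0 and of the NMDA genes 0 were, where 41.5% of all genes were below 0. This share covers genes of every level. The dimmest 30% held Gria1, Gria4 and every NMDA gene but Grin2c, and without them the median over all genes was 0.01. With quantile normalization or cyclic loess, Gria1 and Grin2d turned below 0, so that the counts became 4 and 1. With 1 array left out, 2 (without control 1) to 4 (without control 3) AMPA genes were below 0, and 1 NMDA gene was without control 2 or without CNT 1. Over probe sets, 6 of 8 AMPA and 2 of 10 NMDA ones were below 0, beside 44.8% of all probe sets. The 18 probe sets are not independent, since those of a gene share its transcripts. In 5 of the 7 genes with several probe sets all had log2 fold changes of 1 sign, and in Gria4 and Grin2a they did not.

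The level of 1 subunit gene was also set against another on the same array. The differences of 3 pairs of leading probe sets were compared, each with an exact two-sided permutation test, which with 3 arrays against 3 cannot go below 0.1. Grin2a minus Grin2b, the pair that is exchanged as many brain circuits mature, was -1.12, -1.25 and -1.18 log2 in control cultures and -1.25, -1.25 and -0.93 in CNT cultures. CNT 3 lay above the control range and the other CNT arrays just below it, and the shift of CNT against control was 0.04 ± 0.12 (SE, exact permutation p = 1, -0.07 without CNT 3). Gria1 minus Gria2, of which the second limits calcium entry, was -4.24, -4.49 and -5.04 in control cultures and -4.19, -4.46 and -4.06 in CNT cultures. Its shift was 0.35 ± 0.26 (SE, exact permutation p = 0.2, adjusted p = 0.6 over the 3 pairs) and 0.13 without control 3. Most of it is the difference of Gria2 itself (-0.31), since Gria1 was among the dimmest 30% of genes and differed little between arrays. Gria4 minus Gria2 was -1.56, -2.40 and -2.79 in control cultures and -2.40, -1.77 and -2.22 in CNT cultures, with control 1 highest and control 3 lowest. It shifted by 0.12 ± 0.41 (SE, exact permutation p = 0.8), with -0.14 without control 3 and -0.06 without CNT 2. Grin2a, Grin2b and Gria4 were among the dimmest 30% of genes too. The differences compare arrays and not the amounts of 2 transcripts, since probe sets bind with different strength.

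In bulk RNA, fewer neurons and less receptor RNA per neuron cannot be told apart. The 18 neuron markers, all measured, had a mean level relative to the 6 arrays of -0.09 to 0.13 log2 in control and -0.10 to 0.06 in CNT cultures. Their median log2 fold change was -0.04, and 0 of 18 passed the test. Single markers ran from -0.51 to 0.28, with SEs of 0.70 for Snap25 and 0.67 for Dcx. The mean thus covers markers that varied widely between arrays. Among them Gap43, a growth cone protein, had a log2 fold change of 0.24 ± 0.15 (SE) and Uchl1, a neuronal ubiquitin hydrolase, one of -0.51 ± 0.32 (SE). Taken relative to the neuron marker mean of the same array, Gria2 differed by -0.27 log2 between CNT and control, Gria3 by -0.43, Gria4 by -0.15, Grin1 by 0.26 and Grin2c by 0.30. The marker mean differed by -0.04 between the groups, so this step moved the difference of every member by the same small amount. That 3 members stayed lower and 6 higher is thus no separate result. In 0 of the 9 did the groups not overlap. With any 1 array left out, 2 to 4 members were lower.

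**Figure D3:**
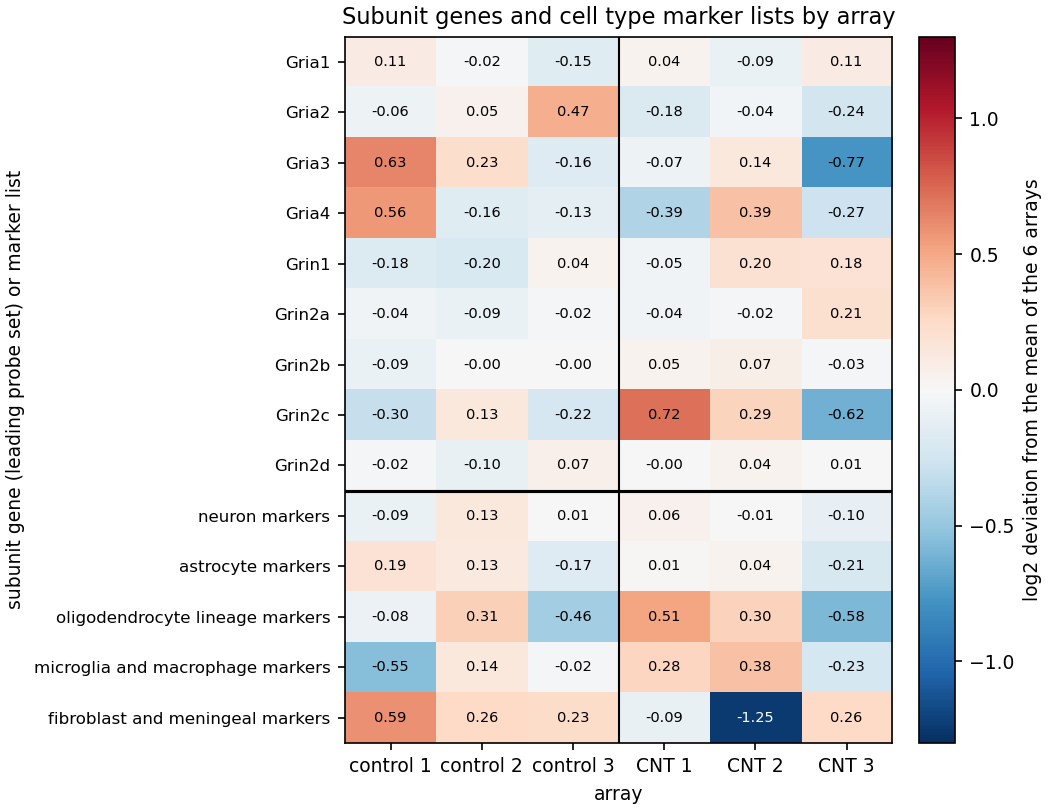
Deviation of each array from the mean of the 6 arrays, in log2 (colour and printed value), for the leading probe set of each subunit gene (upper rows) and for the mean of each cell type marker list (lower rows). Gria3 is 0.63 above its mean in control 1 and 0.77 below it in CNT 3, and Grin2c is 0.72 above in CNT 1 and 0.62 below in CNT 3. The mean of the neuron markers stays between -0.10 and 0.13, though single markers varied more.

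Other cell types were not at the same level on all arrays. The 12 fibroblast and meningeal markers were at 0.23 to 0.59 log2 in control and at -1.25 to 0.26 in CNT cultures, all 12 with a negative log2 fold change. Of the 13 markers of microglia and macrophages 12 had a positive one, and their mean was at -0.55 to 0.14 in control and at -0.23 to 0.38 in CNT cultures. The 10 astrocyte markers measured of 11 listed were at -0.17 to 0.19 in control and at -0.21 to 0.04 in CNT cultures. None of these markers passed the test over all genes, and by unadjusted limma p under 0.05, 1 microglial marker was higher and 1 fibroblast marker lower. Control 1, where Gria3 and Gria4 were highest, had the lowest microglial mean and the highest fibroblast mean, and the part of these cells in the receptor values was not tested. With CNT 2, it also had the largest excess of the 3' over the 5' beta-actin probe set, and CNT 3 came next. The part of RNA quality in the receptor values was not tested either. Of the markers that define the tissue, the neuronal enolase gene Eno2 gave 11.91 to 12.56 log2 over the 6 arrays, the astrocyte gene Gfap 13.70 to 14.38, the myelin gene Mbp 14.22 to 14.72 and the fibroblast collagen gene Col3a1 13.45 to 14.49.

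Around the subunits, 67 of 76 listed genes of glutamatergic transmission were measured, and 0 passed the test in either direction. Their median log2 fold change was 0.02, with 35 above 0 and 32 below. By unadjusted limma p under 0.05, 1 was higher and 0 were lower, where 342 of the 14217 genes were higher and 101 lower. Over the 121 probe sets of these genes, 4 were higher and 1 lower by that measure, beside 2.96% of all probe sets in either direction. The higher ones include every probe set of the gene Adar, so they are not separate genes. Single values of the listed genes are of leading probe sets unless said otherwise. Groups did not overlap in 5 of the 67 genes, 4 with CNT above and 1 with CNT below, beside 7.99% of all genes.

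The other ionotropic subunits (8 measured of 9) had a median of -0.02. The kainate receptor gene Grik5 gave 8.87, 9.22 and 7.99 in control and 8.73, 8.41 and 7.997 in CNT cultures, low in the third replicate of both groups, with a log2 fold change of -0.32 ± 0.35 (SE). The delta receptor gene Grid1 had one of 0.13 ± 0.11 (SE) and the NMDA gene Grin3b one of 0.12 ± 0.12 (SE). The other probe set of Grin3b had one of -0.02 ± 0.10 (SE). Grik4, another kainate receptor gene, had one of -0.02 ± 0.32 (SE). The auxiliary and clustering proteins of AMPA and kainate receptors (15 of 18) had a median of 0.06. Among them the transmembrane regulators Cacng8 and Cacng5 had log2 fold changes of -0.15 ± 0.10 (SE) and 0.13 ± 0.09 (SE, all CNT arrays above all control arrays), and the cornichon gene Cnih2, which aids AMPA receptor export, one of 0.04 ± 0.14 (SE). Prrt1, which joins AMPA receptor complexes, had one of -0.10 ± 0.25 (SE), and its other probe sets were at 0.01 ± 0.08 (SE) and 0.07 ± 0.09 (SE).

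The postsynaptic scaffolds and kinases (24 of 25), which hold the receptors at the synapse, had a median of 0.04. Homer2, a scaffold that links metabotropic receptors to internal calcium stores, gave 7.92, 8.24 and 8.17 in control and 7.98, 7.44 and 7.85 in CNT cultures. The groups overlapped, with CNT 2 lowest, and the log2 fold change was -0.35 ± 0.17 (SE). Dlg3 (SAP102), which carries NMDA receptors early in development, had a log2 fold change of -0.23 ± 0.13 (SE). Its other probe sets were at 0.03 ± 0.15 (SE), 0.02 ± 0.09 (SE) and 0.01 ± 0.10 (SE). The leading probe sets of the scaffold gene Dlg1 and the kinase gene Camk2d both stood at 0.02, with SEs of 0.12 and 0.15. Other probe sets of these genes did not give that value, with -0.58 ± 0.49 (SE) for Dlg1 and with 0.07 ± 0.10 (SE) and -0.74 ± 0.45 (SE) for Camk2d. The metabotropic receptors (7 of 8), which act through G proteins, had a median of -0.02 and a range from -0.12 to 0.13. Grm2 gave 0.13 ± 0.11 (SE), Grm5 -0.12 ± 0.19 (SE) and Grm8 0.03 ± 0.15 (SE), and the groups overlapped in each. The other probe set of Grm5 was at 0.07 ± 0.09 (SE).

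The 6 measured genes of RNA editing and of NMDA co-agonist supply, of 7 listed, held the 1 gene with an unadjusted p under 0.05. Adar, an editing enzyme with an interferon-inducible form, gave 9.78, 10.13 and 10.18 in control and 10.32, 10.42 and 10.59 in CNT cultures. The CNT arrays all lay above the control arrays, and the log2 fold change was 0.41 ± 0.14 (SE, adjusted p = 0.999 from limma). Its other 2 probe sets had groups that did not overlap either, with log2 fold changes of 0.83 ± 0.15 (SE) and 0.66 ± 0.20 (SE). Adarb1, which edits the Gria2 transcript at the site that limits calcium entry, gave 10.78, 9.79 and 10.34 in control and 10.21, 10.01 and 9.93 in CNT cultures. These overlapped, with a log2 fold change of -0.25 ± 0.25 (SE). Its other probe sets were at -0.35 ± 0.29 (SE), with overlap, and at -0.10 ± 0.08 (SE), where the groups did not overlap: 6.02, 6.03 and 6.02 in control against 5.95, 5.88 and 5.94 in CNT cultures. Adarb2, a relative without known editing activity, had one of 0.21 ± 0.11 (SE). The glycine transporter gene Slc6a9 had one of -0.02 ± 0.34 (SE), and its other probe sets were at 0.16 ± 0.56 (SE) and -0.27 ± 0.37 (SE).

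The genes of glutamate release, synthesis and clearance (7 of 9) had a median of -0.04. Slc17a6, the vesicular glutamate transporter of spinal excitatory neurons, had the largest standard error of the genes named from these lists. It gave 9.31, 7.34 and 9.41 in control and 7.14, 7.64 and 9.003 in CNT cultures, with high and low arrays in both groups. Its log2 fold change was -0.76 ± 0.71 (SE). The glutamate transporter gene Slc1a3 and the glutamine synthetase gene Glul, both of astrocytes, had log2 fold changes of -0.17 ± 0.19 (SE) and 0.08 ± 0.16 (SE) by their leading probe sets. The other probe sets of Slc1a3 differed in sign, at -0.91 ± 0.45 (SE) and 0.52 ± 0.35 (SE), and so did those of Glul, at 0.11 ± 0.22 (SE) and -0.26 ± 0.53 (SE).

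**Figure D4:**
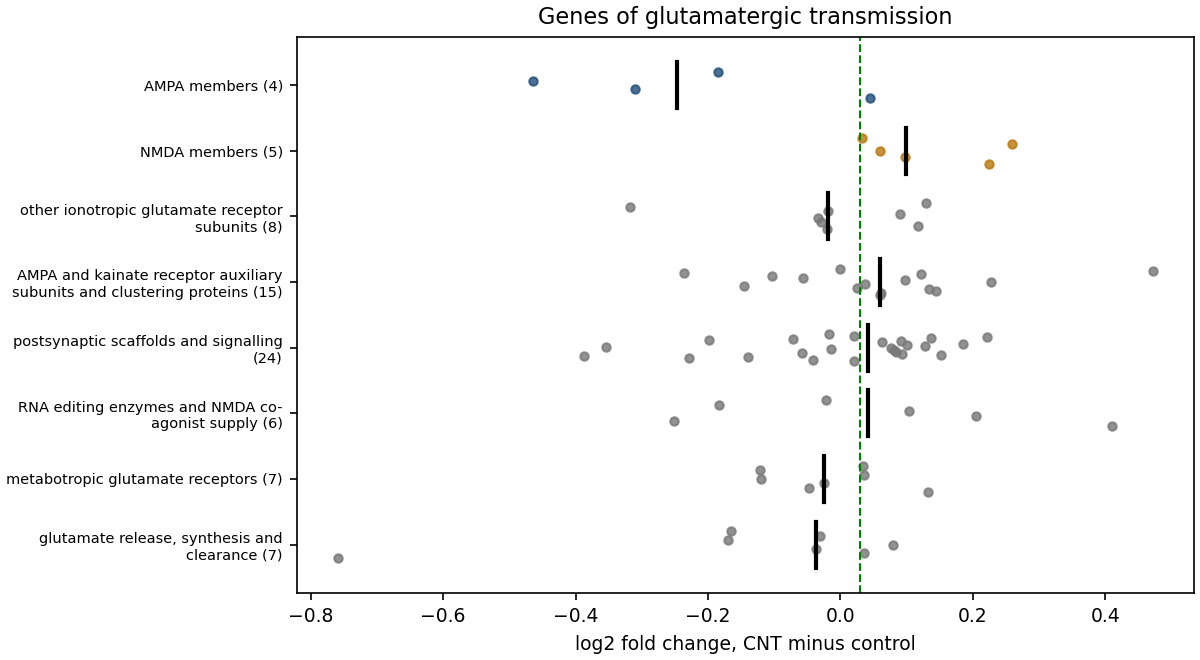
Log2 fold change of CNT minus control (horizontal axis) for each measured gene of the subunit groups (AMPA blue, NMDA orange) and of 6 lists of glutamatergic transmission (grey), with the number measured in parentheses. Black bars are list medians and the dashed line is the median of all genes, 0.03; the list medians lie between -0.04 and 0.06, those of AMPA and NMDA at -0.25 (-0.40 to -0.11 with 1 array left out) and 0.10 (0.05 to 0.13), and Gria1 and Grin2d turned below 0 under quantile normalization or cyclic loess.

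The genes whose pattern over the 6 arrays was most like that of Gria2 and Grin1 were looked up among the other 14216 genes. For Gria2 they were Cadm4 (Pearson r = 0.969, Spearman rho = 0.943), Pnn (r = 0.964, rho = 0.886) and Paxbp1 (r = 0.963, rho = 0.886). For Grin1 they were Trim25 (r = 0.991, rho = 0.943), Map4k1 (r = 0.989, rho = 1) and Cnbd2 (r = 0.988, rho = 1). These are the highest of many values over 6 arrays and are given as a description, with no test.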

How the data were processed

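The values deposited by the authors are log2 expression from RMA (version not given in the sources used here) for the manufacturer's probe sets. RMA draws the probe values of all arrays to 1 distribution, which removes most overall shifts, and it compresses differences of dim probe sets. The medians of the deposited values were still 8.23, 8.24 and 8.25 in control and 8.20, 8.18 and 8.21 in CNT cultures. Each CNT array thus had a lower median than each control array. Of 31099 probe sets, 57 controls, 436 with several genes and 9780 with none were left out. Where a gene had several probe sets, the one of highest average level stood for it. The study's methods name EntrezGene custom files and the rank product, whose permutation of genes was not run here; their fold bounds were applied instead.

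The substrates were compared in limma 3.58.1 (lmFit, eBayes; R 4.3.3) on all genes, with Benjamini-Hochberg adjustment and a threshold of 0.05, and separately on all probe sets. Differences of subunits were tested by exact permutation. The limma p-values set a mean difference against the spread between these cultures, which eBayes adjusts with that of all genes. The exact ones set it against all splits of the 6 arrays. Members and lists were chosen with earlier results of these data known. The text names all members, from each list of glutamatergic transmission the 2 genes of smallest unadjusted p and the 2 of highest mean (some of these from the marker lists), and the genes most like Gria2 and Grin1. Adarb1 was named outside this rule after its values were seen. Detection calls were not used here, and 6 arrays limit the precision.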

Additional observations from a re-analysis of the deposited data

How the results depend on the processing

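Under the alternatives tried (a trend and robust fit, array weights, quantile, cyclic loess or median scaling, averaging the probe sets of a gene, the beta-actin difference as a covariate, and leaving out arrays), 0 of the 9 subunit genes passed in any. With the dimmest 30% of genes left out, only Gria2, Gria3 and Grin2c of the 9 were tested, and they did not pass either. Over all genes 2 were called without control 3, and 0 in each other setting. Settings for probe sets, lists, group medians and neuron-relative values were added after seeing the data.

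Some signs turned. With quantile normalization the log2 fold change was -0.00072 for Gria1 and -0.0026 for Grin2d, and with cyclic loess -0.0032 and -0.0094. With 1 array left out, Gria1 was at -0.020 (without control 3) to 0.11, Grin2d at -0.0077 (without control 2) to 0.076, Gria4 at -0.42 to 0.051 (without control 1) and Grin2c at -0.037 (without CNT 1) to 0.63. With the mean over probe sets Grin2a was at -0.0090 and the shift of Grin2a minus Grin2b at -0.083. That shift was -0.070 to 0.092 with 1 array left out, and that of Gria4 minus Gria2 was -0.14 to 0.47 (-0.056 without CNT 2). The cause was not tested. For leading probe sets or the mean over probe sets, no setting turned the sign of Gria2, Gria3, Grin1 or Grin2b. The trend and robust fit, a block of replicate number and leaving out dim genes could not turn a sign, since they keep each log2 fold change. With 1 array left out, Gria2 was at -0.42 to -0.15, Gria3 at -0.66 to -0.20, Grin1 at 0.18 to 0.30 and Grin2b at 0.03 to 0.09. The second probe set of Gria2 turned to 0.12 without CNT 3. That of Grin1 turned to -0.05 without control 1 and CNT 2. Members lower relative to neuron markers were 2 to 4 over arrays left out.

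With the replicate number as a block, 0 genes were called, as without it. In limma over all probe sets, the unadjusted p of the leading Gria3 probe set was 0.0451 with the block and 0.175 without. That of its second probe set was 0.035 with the block and 0.0274 without. The adjusted p of both was 0.992 with the block. Each replicate number has 1 control and 1 CNT array, so the block could not move a mean shift. The shifts thus stayed at 0.04 for Grin2a minus Grin2b, 0.35 for Gria1 minus Gria2 and 0.12 for Gria4 minus Gria2. The deviations of same-numbered arrays from their group means correlated with r of -0.127, 0.361 and 0.513. Not all pairs deviated together, and the numbers were not taken as pairs. These values rest on 3 arrays per group and cannot settle whether the cultures were paired. Control 1 and control 2 correlated best with a CNT array of another number.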
